A study of Homo sapiens with 6 samples.

Results

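HCFC1R1, a regulator of host cell factor C1, was examined with 5 genes whose products are host cell factors or bind one: HCFC2, OGT, BAP1, CREBZF and THAP11. The 6 genes were taken by symbol from 28565 genes in the count table, and all 6 were among the 13389 genes that passed the filter on low counts and were tested. HCFC1R1 was selected on its higher count at 24 h than at 0 h, so this difference is described here without a test. The other 5 were chosen for their function, but with earlier results of these data known. RNA was sequenced from HK-2, a human cell line with the character of renal proximal tubule. All libraries, those at 0 h included, share a transient transfection with a plasmid that overexpresses the long noncoding RNA called LncR2 in the titles, followed by 48 h of incubation. In 3 libraries the cells had 0 h of cisplatin, a platinum drug that crosslinks DNA, and in 3 they had 24 h. Cells with a control plasmid were not analysed here, so the effect of the lncRNA is not measured and 24 h of cisplatin cannot be told apart from 24 h of further culture after transfection. Nothing in the labels states that libraries of 1 group are separate cultures. The series record mentions 2 biological replicates per treatment where 3 libraries are given. Hence p-values measure the spread between these libraries, which may be technical.

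Host cell factor C1 (HCF-1, gene HCFC1) is a nuclear coregulator that was found as a cellular cofactor of herpesvirus transcription. It does not bind DNA itself. Sequence-specific factors carry it to promoters, where it brings in enzymes that methylate, acetylate, deacetylate or deubiquitinate chromatin, and it is known for its part in the passage of cells through G1. OGT, which adds N-acetylglucosamine (O-GlcNAc) to proteins, also cuts the HCF-1 precursor. BAP1 is a deubiquitinase that binds HCF-1, and CREBZF and THAP11 are transcription regulators that bind it. HCFC2 encodes a smaller paralog, HCF-2. The HCFC1R1 protein binds HCF-1 and carries a nuclear export signal read by exportin (XPO1).

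HCFC1R1 (ENSG00000103145.10) is a short gene on the minus strand of chromosome 16, from 3022620 to 3024286 in GENCODE 29 on GRCh38, with 1433 bases of exon. The 250 bases before its upstream RefSeq start and the 50 after it are printed because they hold a motif known for another member. THAP11 and the zinc finger protein ZNF143 are known to occupy promoters with the motif ACTACAA. The longer form ACTACAANNCCCAG was read from the matches to ACTACAA in these bases, with N where they differ. The window is on the minus strand of GRCh38.p14 at chr16:3024237-3024536, read 5′ to 3′, and capitals mark the matches to the longer form.
HCFC1R1 promoter: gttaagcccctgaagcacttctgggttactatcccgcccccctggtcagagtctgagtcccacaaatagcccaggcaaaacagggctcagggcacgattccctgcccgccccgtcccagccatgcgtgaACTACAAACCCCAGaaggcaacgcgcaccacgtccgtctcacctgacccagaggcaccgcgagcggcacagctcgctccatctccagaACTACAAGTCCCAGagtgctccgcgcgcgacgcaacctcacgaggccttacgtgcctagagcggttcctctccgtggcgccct

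The longer form begins at positions -121 and -33 from that start, on the strand of the gene both times. Of 35116 RefSeq promoter windows of the same length, 2.77% held ACTACAA on either strand and 0.624% held the longer form. The longer form contains the shorter one and was derived from this sequence after its matches had been seen. Its matches here were thus fixed in advance, and nothing is read from its share. A second RefSeq start of HCFC1R1, whose window runs from 3023893 to 3024192, held neither. RefSeq windows were found for 6 of the 8 genes looked up (HCFC1R1, HCFC2, OGT, CREBZF, THAP11 and THOC6). No other window of these held ACTACAA. The window of THAP11 and the downstream window of CREBZF held the ETS motif CCGGAAG (10.3% of all windows), that of HCFC2 held the YY1 motif GCCATNTT (6.58%), and none held the E2F motif TTTNGCGC (1.79%) or the cyclic AMP response element TGACGTCA (1.85%). Both strands were searched. A match is a description of the letters, not evidence of binding.

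Total counts per library ran from 5028881 to 5844246 at 0 h and from 6022268 to 7248754 at 24 h. Levels across libraries are CPM, counts scaled to a common library size by TMM factors, and levels across genes are the authors' FPKM, which are per length. The totals that the authors used as FPKM denominators, recovered from count over FPKM, grew less from 0 h to 24 h than the gene counts did, and scaling by them raised the median gene by 0.24 on the log2 scale. Of all genes tested, 0.866% rose and 2.08% fell with TMM scaling, against 17.4% and 1.43% with those denominators (edgeR adjusted p under the threshold of 0.05). CPM differences are therefore relative to the median gene. As a check of the cells, 11 of 17 markers of renal epithelium and HK-2 cells had more than 10 counts in every library, with summed levels of 2379 to 2545 CPM at 0 h and 2483 to 2561 at 24 h. The proximal tubule genes CUBN, SLC34A1, AQP1 and ANPEP and the cadherin CDH1 did not exceed 10 counts in any library. Summed leukocyte markers were at most 3.42 CPM and summed endothelial markers at most 0.427 CPM, and summed fibroblast markers were 15.7 to 18.3 CPM at 0 h and 17.5 to 20.9 CPM at 24 h.

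The 0 h libraries held 34, 35 and 35 reads of HCFC1R1, and the 24 h libraries 88, 90 and 110. In CPM its levels were 6.78, 6.86 and 6.18 before and 14.52, 13.03 and 15.08 after 24 h. Every library at 24 h lay above every library at 0 h, with a gap wider than the range within either group. As the gene was picked for its rise in these libraries, nothing is read from this gap. In bulk RNA a higher level in each cell cannot be told apart from more cells that carry it. The means were 6.61 ± 0.372 and 14.2 ± 1.06 CPM (SD, n = 3 each), a ratio of 2.15 and a log2 fold change of 1.10 ± 0.18 (standard error of the edgeR model). Its log2 fold change was the fourth largest among the 116 genes called as higher, which made up 0.866% of the genes tested, and nothing is read from this because it is how the gene was picked. Leaving out 1 library gave values from 1.05 to 1.17. HCFC1R1 had the highest GC content of the 6 members (65.4% in its longest transcript), and correcting each library for GC lowered its value to 0.95.

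**Figure D1:**
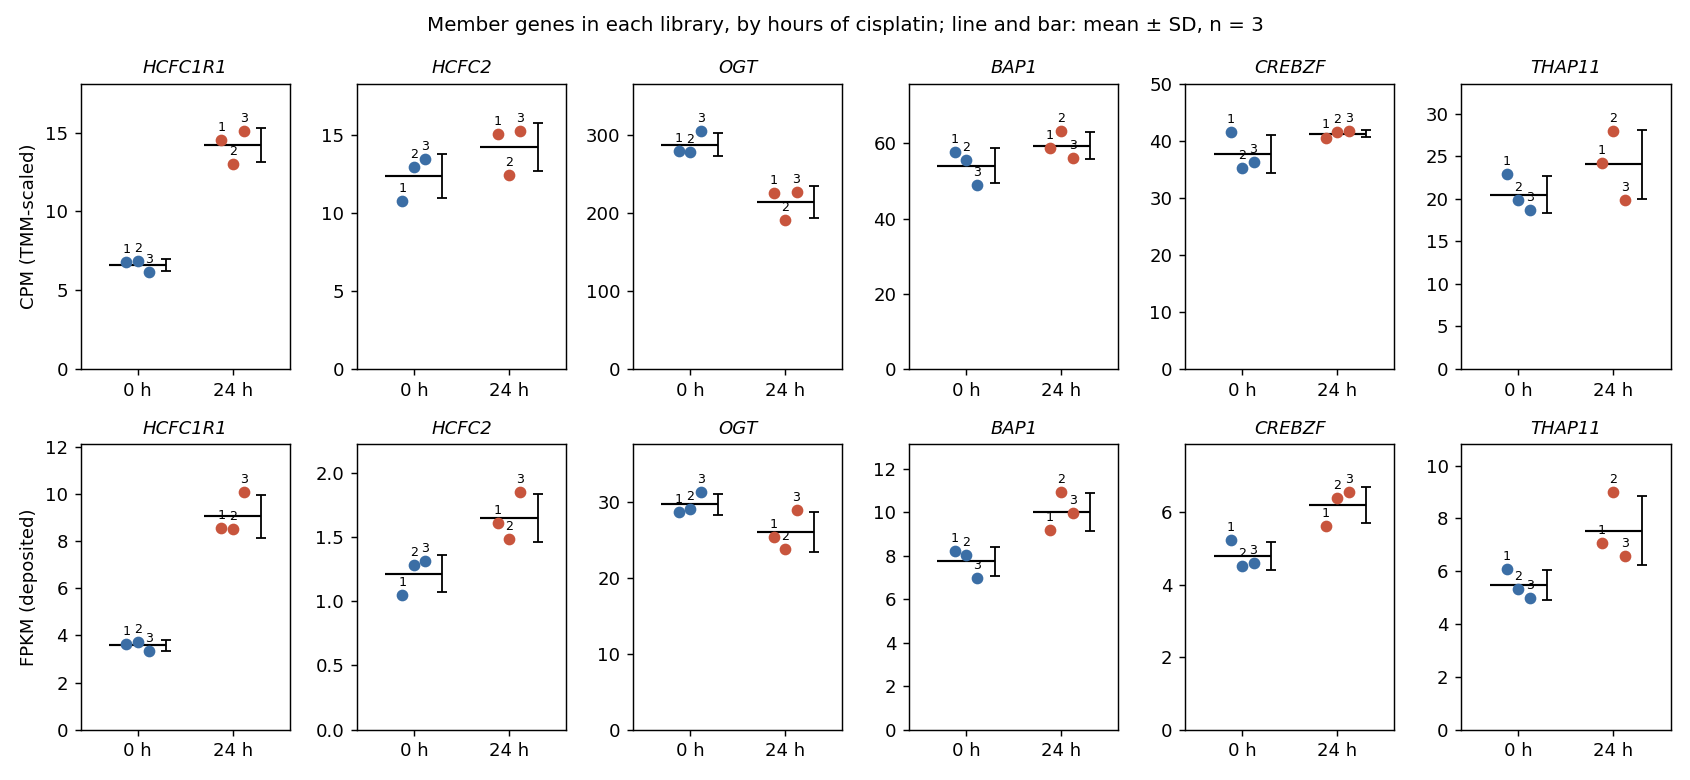
Level of each member gene in each library, as TMM-scaled CPM (upper row) and as deposited FPKM (lower row), at 0 h and 24 h of cisplatin; points are libraries with their replicate number, lines are means and bars are SD (n = 3). In CPM the groups are apart for HCFC1R1, from 6.18 to 6.86 against 13.03 to 15.08, and for OGT, from 278 to 304 against 190 to 226.

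XPO1, the exportin that the HCFC1R1 product depends on, was at 409 ± 73.3 CPM at 0 h and 394 ± 43.3 CPM at 24 h (SD, n = 3 each). Its log2 fold change was -0.06 ± 0.13 with a 95% interval from -0.33 to 0.22.

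The host cell factors themselves did not pass the test. HCFC1 (ENSG00000172534.13) had 238, 264 and 178 CPM at 0 h and 318, 301 and 224 CPM at 24 h. Its groups overlapped, because 24 h replicate 3 was below 0 h replicates 1 and 2. It was higher by 0.31 ± 0.15 on the log2 scale, with a 95% interval from -0.002 to 0.62 (edgeR adjusted p = 0.278). Leaving out 1 library moved it from 0.16 (without 0 h replicate 3) to 0.44 (without 24 h replicate 3), with no call. It was called with the FPKM denominators (0.54, edgeR adjusted p = 0.0104) and with the replicate number as a block (0.31, adjusted p = 0.0095). Whether these numbers pair the libraries was not settled. HCFC2 (ENSG00000111727.11; chromosome 12, 104064457 to 104106524) had 10.77, 12.94 and 13.42 CPM at 0 h and 15.01, 12.45 and 15.22 CPM at 24 h. These also overlapped, at 0.20 ± 0.17 with a 95% interval from -0.16 to 0.55 (edgeR adjusted p = 0.587). Its values without 1 library ran from 0.11 (without 0 h replicate 1) to 0.29 (without 24 h replicate 2), and none was called. Per length the paralogs were far apart, with HCFC1 at 14.2 ± 2.85 FPKM and HCFC2 at 1.21 ± 0.142 FPKM at 0 h (SD, n = 3 each). HCFC2 had 0.0565 ± 0.0165 reads per HCFC1 read at 0 h and 0.0521 ± 0.0139 at 24 h (exact two-sided permutation p = 0.6, n = 3 each).

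Among the members not picked for a rise, OGT was the only one that edgeR called. Of these 5 members, 0 rose and 1 fell by edgeR, where 0.866% of all genes tested rose and 2.08% fell. OGT was also the only one of the 5 at an unadjusted p under 0.05, as were 18.1% of all genes tested. DESeq2 called OGT alone of the 5, where it called 123 of 28565 genes as higher and 211 as lower. It was run without the filter on low counts, so these shares cannot be set beside those of edgeR. OGT (ENSG00000147162.13; chromosome X, 71533083 to 71575897) had 279, 278 and 304 CPM at 0 h and 226, 190 and 226 CPM at 24 h. The lowest library at 0 h was above the highest at 24 h. This separation, in either direction, was found for 22.6% of all genes tested (higher at 24 h for 10.9%, lower for 11.7%). OGT fell from 287 ± 14.9 to 214 ± 20.7 CPM (SD, n = 3 each), or -0.42 ± 0.10 on the log2 scale (edgeR adjusted p = 0.0370). The 95% interval ran from -0.64 to -0.20.

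The call of OGT was lost under several other treatments of the libraries. It was lost in 5 of the 6 fits without 1 library, at values from -0.47 to -0.34. Leaving out replicate 1 or 2 of the 0 h group gave edgeR adjusted p = 0.0554 and 0.129, and leaving out replicate 1, 2 or 3 of the 24 h group gave 0.0813, 0.240 and 0.0772. Scaled by the FPKM denominators it was -0.19 ± 0.13 (edgeR adjusted p = 0.286). In FPKM the groups overlapped, with 28.65, 28.97 and 31.28 at 0 h and 25.41, 23.72 and 28.92 at 24 h. For 2.83% of genes with a mean of at least 0.5 FPKM all 24 h libraries lay below all 0 h libraries.

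**Figure D2:**
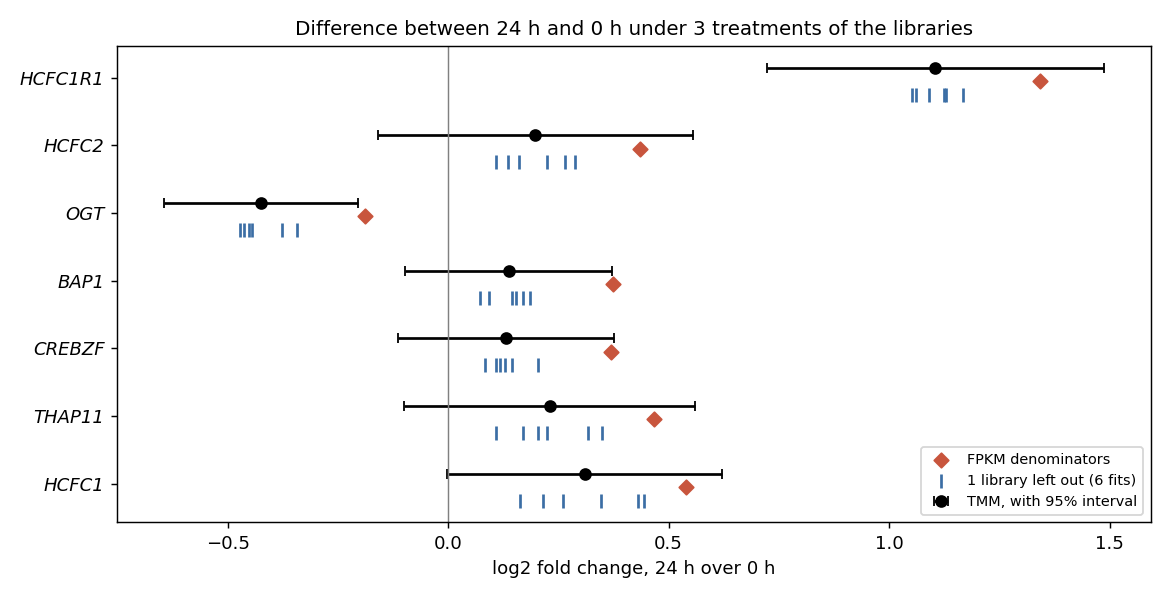
Log2 fold change of 24 h over 0 h for the 6 members and HCFC1; circles and bars are the TMM-scaled estimate with its 95% interval, diamonds the estimate scaled by FPKM denominators, and ticks the 6 estimates without 1 library. OGT is the only gene left of 0, moving from -0.42 to -0.19 with the denominators, while HCFC1R1 stays between 1.05 and 1.34.

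Ratios between genes of the same library do not depend on how libraries are scaled, and 4 of them, chosen after the values were seen, were tested. OGT reads per read of MGEA5, the symbol that the table uses for the O-GlcNAcase that removes the sugar, were 1.44, 1.57 and 1.57 at 0 h and 1.203, 1.049 and 1.143 at 24 h. The groups did not overlap, and the mean went from 1.53 ± 0.0759 to 1.13 ± 0.0778 (SD, n = 3 each). MGEA5 itself was at 188 ± 9.55 and 189 ± 8.43 CPM. OGT reads per HCFC1 read were 1.17, 1.05 and 1.71 at 0 h and 0.710, 0.631 and 1.01 at 24 h, which also kept the groups apart. OGT reads per BAP1 read went from 5.35 ± 0.758 to 3.62 ± 0.543 (SD, n = 3 each). Each of these 3 ratios gave an exact two-sided permutation p = 0.1, the smallest that 3 libraries against 3 allow, and 0.133 after Benjamini-Hochberg adjustment over the 4 ratios.

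**Figure D3:**
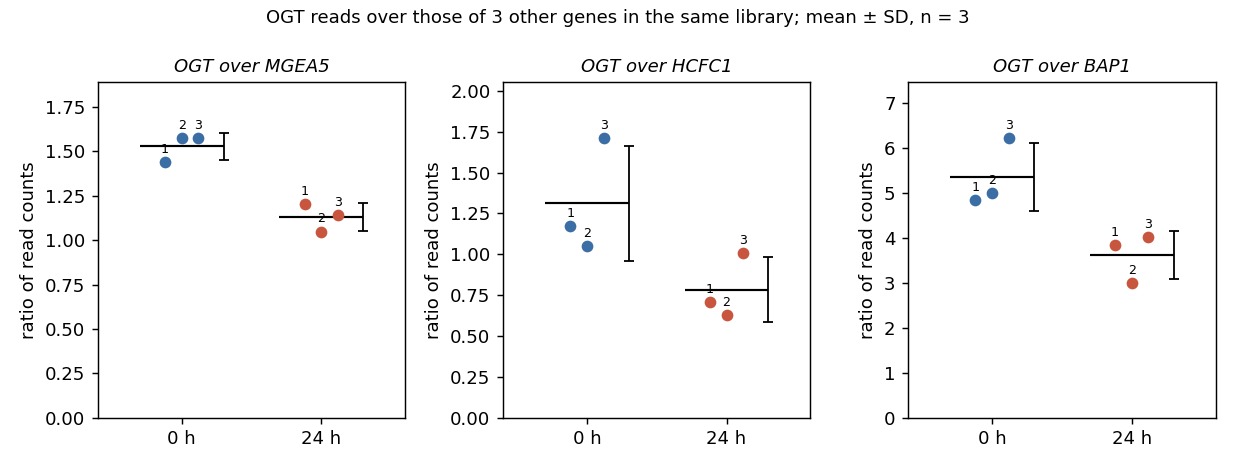
Reads of OGT divided by reads of MGEA5, HCFC1 or BAP1 in the same library, at 0 h and 24 h; points are libraries with their replicate number, lines are means and bars are SD (n = 3). All 3 ratios are lower in the 24 h libraries, and replicate 3 is the highest of its group for OGT over HCFC1, at 1.71 and 1.01.

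BAP1, CREBZF and THAP11 differed by less than the test could call. BAP1 (ENSG00000163930.9; chromosome 3, 52401013 to 52410350) had 57.6, 55.7 and 48.9 CPM at 0 h and 58.7, 63.2 and 56.2 CPM at 24 h, at 0.14 ± 0.11 with a 95% interval from -0.10 to 0.37 (edgeR adjusted p = 0.563). Its groups overlapped between 56.2 and 57.6 CPM. CREBZF (ENSG00000137504.13; chromosome 11, 85659708 to 85682908) had 41.5, 35.3 and 36.4 CPM at 0 h and 40.6, 41.5 and 41.7 CPM at 24 h. Its 24 h libraries lay close together, within the upper part of the 0 h range or just above it. Its log2 fold change was 0.13 ± 0.12 with a 95% interval from -0.11 to 0.38 (edgeR adjusted p = 0.602). THAP11 (ENSG00000168286.2; chromosome 16, 67842082 to 67844195), a gene of 1 exon, had 22.9, 19.8 and 18.7 CPM at 0 h and 24.2, 27.9 and 19.9 CPM at 24 h. The lowest 24 h library of THAP11 was within the 0 h range. Its value was 0.23 ± 0.16 with a 95% interval from -0.10 to 0.56 (edgeR adjusted p = 0.470). Without 1 library the values ran from 0.07 (without 0 h replicate 3) to 0.19 (without 0 h replicate 1) for BAP1, from 0.08 (without 0 h replicate 2) to 0.20 (without 0 h replicate 1) for CREBZF, and from 0.11 (without 24 h replicate 2) to 0.35 (without 24 h replicate 3) for THAP11, and none was called. Scaled by the FPKM denominators, BAP1 (0.37, edgeR adjusted p = 0.0485) and THAP11 (0.47, adjusted p = 0.0457) were called as higher, where 17.4% of all genes were.

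In each group the library numbered 3 had the lowest CPM of BAP1, THAP11 and HCFC1 and the highest of HCFC2. The first 3 have GC contents of 60.4, 60.3 and 61.5%, and HCFC2 one of 36.7%. HCFC1R1, at 65.4% GC, was lowest in the library numbered 3 at 0 h (6.18 CPM) but highest in it at 24 h (15.08 CPM). OGT was highest in that library in both groups, and CREBZF (42.5% GC) only at 24 h. A link with GC was not tested. With each library corrected for GC, BAP1 was at 0.03, THAP11 at 0.12, HCFC1 at 0.19 and HCFC2 at 0.20, and OGT (42.9% GC) at -0.42.

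Per length, OGT was the most abundant member in all 6 libraries and HCFC2 the least. At 0 h the order was the same in every library: OGT at 29.6 ± 1.43, BAP1 at 7.74 ± 0.672, THAP11 at 5.46 ± 0.566, CREBZF at 4.79 ± 0.395, HCFC1R1 at 3.57 ± 0.215 and HCFC2 at 1.21 ± 0.142 FPKM (mean ± SD, n = 3). THAP11 and CREBZF overlapped in range between libraries, although THAP11 was the higher within each, whereas the other neighbours in this order did not overlap. HCFC1R1 had 3.65, 3.74 and 3.33 FPKM at 0 h and 8.56, 8.51 and 10.09 FPKM at 24 h. At 24 h HCFC1R1, at 9.05 ± 0.898 FPKM, had moved from the fifth place to the third, behind BAP1 at 10.0 ± 0.886 and ahead of THAP11 at 7.54 ± 1.29. Its range overlapped those of both. CREBZF was at 6.19 ± 0.493 FPKM, with a range that met that of THAP11 at 6.56, OGT at 26.0 ± 2.65 and HCFC2 at 1.65 ± 0.188 FPKM. In FPKM the 24 h libraries lay above all 0 h libraries in 4 of the 5 members not picked for a rise, the exception being OGT, as they did for 31.8% of all genes with a mean of at least 0.5 FPKM. The lengths behind these values, as recovered from count and FPKM, were shorter than the annotated exons for every member but THAP11 (2114 bases in both). They were 1043 bases against 1433 for HCFC1R1 and 5461 against 9812 for OGT.

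The neighbours of HCFC1R1 are described because the sources do not state whether strand was used in counting. THOC6, a subunit of the mRNA export complex THO, starts on the opposite strand inside HCFC1R1 and shares 260 exon bases with it. THOC6 had from 60 to 71 counts before and from 95 to 137 after 24 h, or 12.5 ± 1.42 and 17.2 ± 2.27 CPM (SD, n = 3 each). Its groups did not overlap, at 0.46 ± 0.17, but it did not pass (edgeR adjusted p = 0.146). It passed with the FPKM denominators (0.70, adjusted p = 0.00998) and by limma on log2(FPKM + 1) (0.60, adjusted p = 0.0442). HCFC1R1 had 0.531 ± 0.0522 reads per THOC6 read at 0 h and 0.838 ± 0.157 at 24 h (SD, n = 3 each), higher in every 24 h library than in any 0 h library. This ratio rests on the counts for which HCFC1R1 was picked, so it was not tested and nothing is read from the separation. How far reads in the shared bases were counted for either gene was not tested.

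TNFRSF12A, the receptor for the cytokine TWEAK, ends 236 bases from the end of HCFC1R1 on the opposite strand and is far more abundant, at 84.5 ± 4.70 FPKM at 0 h (SD, n = 3). It had 216, 194 and 218 CPM at 0 h and 201, 241 and 207 CPM at 24 h, with overlapping groups and a log2 fold change of 0.05 ± 0.10 (edgeR adjusted p = 0.843). Its sign was not stable: the value was -0.10 with the GC correction, and below 0 when the library numbered 2 was left out of either group (-0.004 for 0 h, -0.03 for 24 h). The claudin genes CLDN6 and CLDN9, also within 10000 bases, had 0 to 2 counts per library, the antisense gene AC108134.1 had 1 to 4, and BICDL2 had 0 to 5, these last 2 listed under other symbols. Among the other members only THAP11 overlaps another gene, the kinetochore gene CENPT on the opposite strand, with 380 shared exon bases. CENPT was at 0.27 ± 0.12 (edgeR adjusted p = 0.233).

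**Figure D4:**
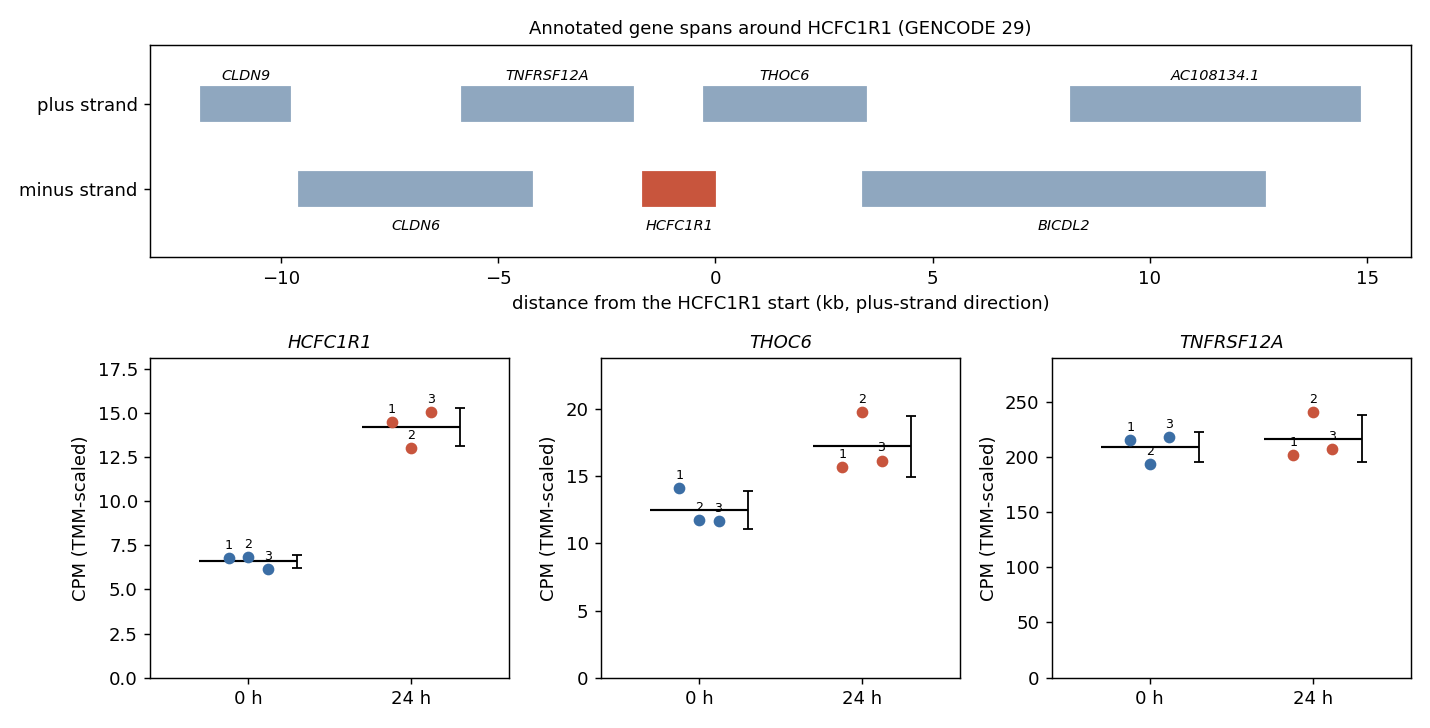
Upper panel: annotated spans of the genes within 10000 bases of HCFC1R1, by strand, as distance in kb from its start. Lower panels: TMM-scaled CPM of HCFC1R1, THOC6 and TNFRSF12A in each library, with means and SD (n = 3); HCFC1R1 and THOC6 are higher in all 24 h libraries, while TNFRSF12A overlaps at 194 to 218 and 201 to 241 CPM.

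The wider machinery around HCF-1 was followed in 8 lists holding 112 genes of the table, 110 of them tested. Without HCFC1R1, which was picked for its rise, 1 of 109 tested genes rose (E2F1) and 2 fell (OGT and MBD5) by edgeR's test, where 0.866% of all genes rose and 2.08% fell. The median of the lists' log2 fold change was 0.00, as was that of all genes tested. With HCFC1R1 included the TMM counts were 2 and 2. Scaled by the FPKM denominators 22 rose and 1 fell, with a median of 0.24 in the lists and in all genes. With TMM scaling and HCFC1R1 included, there were 1 rise and 0 falls without the library numbered 2 of either group. Leaving out replicate 1 of the 0 h group gave 2 and 0, and leaving out its replicate 3 gave 6 and 9. Leaving out replicate 1 or 3 of the 24 h group gave 2 and 1. Among the host cell factors and free binding partners, E2F1 was the only gene called beside HCFC1R1 of 28 tested, and the median was 0.05. E2F1, the cell-cycle transcription factor that carries HCF-1 to promoters at the G1/S transition, had 61.0, 56.1 and 56.1 CPM at 0 h and 91.1, 89.9 and 79.4 CPM at 24 h. Its groups lay well apart, at 0.59 ± 0.11 (edgeR adjusted p = 0.00573), and the call was narrowly lost without 0 h replicate 2 (adjusted p = 0.0548) or 24 h replicate 2 (0.0568). ZNF143, which shares the motif printed above with THAP11, was at 21.7 ± 3.15 and 28.5 ± 3.83 CPM (SD, n = 3 each) and did not pass (0.39 ± 0.15, edgeR adjusted p = 0.182).

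In the BAP1 deubiquitinase complex 2 of 11 fell and 0 rose, beside 2.08% and 0.866% of all genes, with a median of -0.19 against 0.00 for all genes. OGT counts in this list and in 2 others. MBD5, a methyl-CpG-binding domain protein of this complex, had 27.9, 24.5 and 20.8 CPM at 0 h and 14.5, 11.9 and 16.2 CPM at 24 h. The groups did not overlap, at -0.78 ± 0.16 (edgeR adjusted p = 0.0166). MBD5 was called in 14 of 20 alternatives. Its call was lost without 0 h replicate 1 (edgeR adjusted p = 0.0581), 0 h replicate 2 (0.0841) or 24 h replicate 2 (0.133). It was also lost by limma on log2(FPKM + 1), at -0.26 with or without a filter (limma adjusted p = 0.214 and 0.360). On log2(FPKM + 0.1) it was at -0.50 (limma adjusted p = 0.214). OGT was the only gene called in the list of O-GlcNAc cycling and UDP-GlcNAc supply (1 of 14 fell, median -0.06) and in the NSL acetyltransferase complex (1 of 10 fell, median -0.17).

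The other lists held no called gene. The SET1 and MLL methyltransferase complexes had 0 of 19 (1 with an unadjusted p under 0.05, as for 18.1% of all genes; median -0.05), with CXXC1, the CpG-binding subunit of SET1, at -0.26 ± 0.11 and PAGR1, whose symbol has several entries in the table, at 0.30 ± 0.15. The SIN3 deacetylase complex had 0 of 16 (2 unadjusted, median 0.09), with the deacetylase HDAC1 at 0.24 ± 0.10 and ING2 at 0.46 ± 0.21. The demethylases and coregulators had 0 of 6 (2 unadjusted, median -0.04), with the histone demethylases KDM4A at -0.27 ± 0.11 and KDM1A at 0.21 ± 0.09. Cobalamin genes, among them MMACHC, whose transcription is known to depend on HCF-1 and THAP11, had 0 of 11 (0 unadjusted, median 0.09). MMACHC was at -0.01 ± 0.20, and the 2 genes with the smallest p were ABCD4 (0.40 ± 0.20) and CD320 (0.27 ± 0.14), a lysosomal transporter and the cellular receptor for cobalamin. DESeq2 called E2F1, HCFC1R1, MBD5 and OGT in the lists, the same 4 genes as edgeR. For HCFC1R1, which was picked for its rise, nothing is read from these calls.

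**Figure D5:**
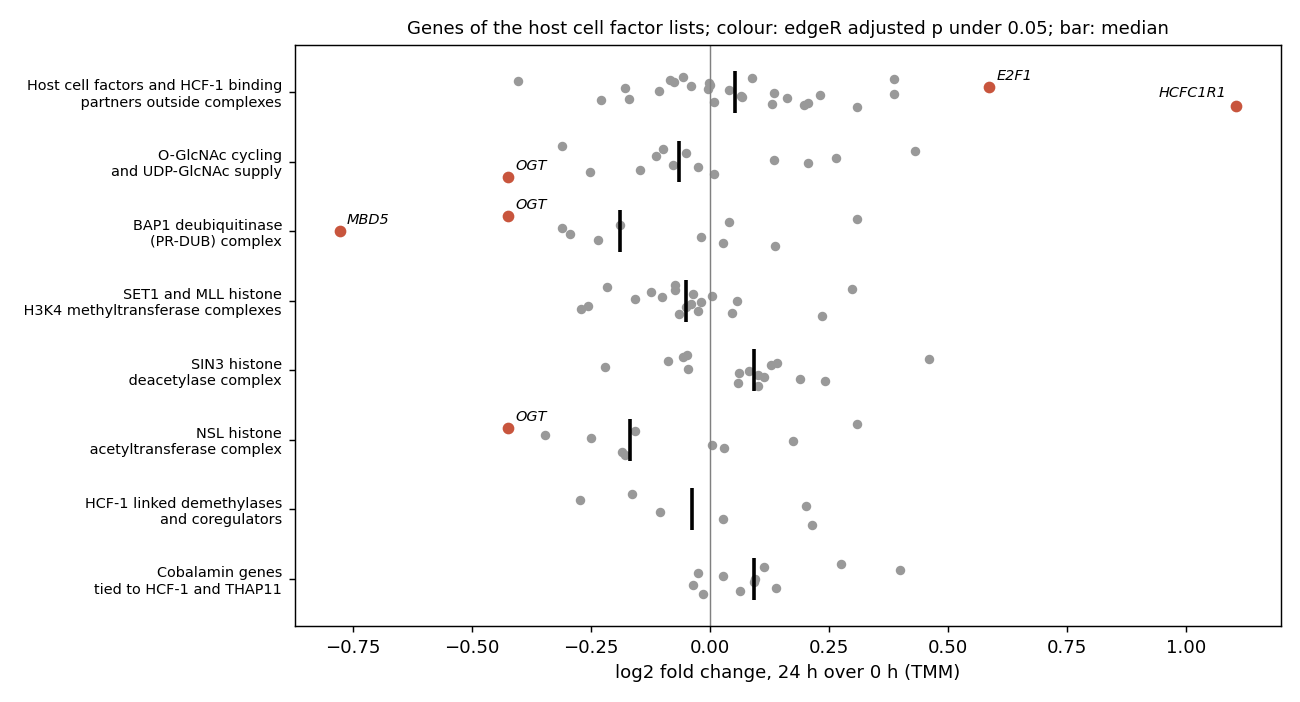
Log2 fold change of each tested gene in the 8 lists around HCF-1, TMM-scaled, 24 h over 0 h. Coloured points had an edgeR adjusted p under 0.05 and are named, and bars are list medians. HCFC1R1 was picked for its rise, so its colour is not read as a test. The named points are HCFC1R1 at 1.10, E2F1 at 0.59, OGT at -0.42 and MBD5 at -0.78, and OGT belongs to 3 lists.

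Likeness to HCFC1R1 was measured as Pearson's r of log2 CPM over the 6 libraries, for 10828 genes with a mean of at least 5 CPM. All libraries share the difference in time, so these values describe the libraries and carry no test. The highest were those of TMEM41A (0.996), PNMA1 (0.996), RRAGA, a Rag GTPase of amino acid sensing (0.994), PSME3, a proteasome activator (0.992), and NUDT1, which removes oxidised nucleotides (0.986). RRAGA went from 24.1, 23.1 and 21.9 CPM at 0 h to 40.2, 36.8 and 38.1 CPM at 24 h (0.74 ± 0.12 on the log2 scale), and the other 4 were between 0.31 and 0.46. The lowest were those of PSAT1, of serine synthesis (-0.998), CTH, which makes cysteine from cystathionine (-0.997), and CACUL1 (-0.997). CTH went from 35.5, 35.9 and 36.5 to 16.8, 17.8 and 15.6 CPM. In all, 260 genes had r above 0.9 and 333 had r below -0.9. Among the members, r with HCFC1R1 was -0.883 for OGT, 0.683 for CREBZF, 0.627 for HCFC2, 0.613 for BAP1 and 0.495 for THAP11.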

How the data were processed

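RNA-seq was measured in 6 libraries of HK-2 cells. Per the labels' protocols, libraries keep strand, were depleted of ribosomal RNA and were read from both ends over 150 nt. The authors deposited read counts per gene as whole numbers and FPKM rounded to hundredths. GRCh38, TopHat2, bcl2fastq and edgeR are named per the submitters' processing notes. Not given in the sources used here are versions, the read counter, the annotation release and whether counting used strand. Of the genes, 97.8% had a position in GENCODE 29. No row lacked a gene name.

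The quasi-likelihood test of edgeR 4.0.16 in R 4.3.3 was run on counts with TMM, filterByExpr and no covariates, with Benjamini-Hochberg adjustment over 13389 genes and a threshold of 0.05. The SE is the log2 fold change over the root of its F. FPKM denominators came from 183 genes of 1 transcript with more than 300 counts. The fit was tested on simulated data. Alternatives were other scalings and filters, robust dispersion, DESeq2 1.42.0, limma 3.58.1 on log2(FPKM + 1) and log2(FPKM + 0.1), the replicate block, libraries left out and, added after seeing the data, a GC correction. Members, lists and alternatives were chosen with earlier results of these data known. The text names the 6 members, every called gene of a list or else the 2 with the smallest p, neighbours within 10000 bases of HCFC1R1, genes overlapping other members and the 5 highest and 3 lowest correlations with HCFC1R1. XPO1, HCFC1, MGEA5, ZNF143 and MMACHC were added for their roles. Reads carry no molecular identifiers.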

Additional observations from a re-analysis of the deposited data

How the results depend on the processing

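HCFC1R1 kept its direction in all 20 alternatives. They refit the libraries in which it was picked for its rise, so nothing is read from this. Its value was 1.34 with FPKM denominators, 1.31 by limma on log2(FPKM + 0.1), 0.95 with the GC correction, 1.01 if both libraries numbered 3 were left out, and 1.05 to 1.17 without 1 library. OGT also kept its direction. It was called in 11 of 20 and not with FPKM denominators (-0.19) or by limma on log2(FPKM + 1) with or without a filter (-0.18 both times) or on log2(FPKM + 0.1) (-0.19), and was -0.47 to -0.34 without 1 library. BAP1 (0.37) and THAP11 (0.47) were called with FPKM denominators only, and HCFC2 and CREBZF in no alternative. Of 22 other named genes, CACUL1 changed sign with FPKM denominators (0.018), by limma on log2(FPKM + 1) with or without a filter (0.014) and on log2(FPKM + 0.1) (0.015), and TNFRSF12A did so with the GC correction (-0.10) and in the fits without 1 library (-0.029 to 0.10).

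Over all genes, rises and falls were 116 and 278. They were 2350 and 192 with FPKM denominators (92.4% rises against 29.4%), 345 and 395 with no filter (46.6%), 685 and 82 by limma on log2(FPKM + 1), 625 and 74 on log2(FPKM + 0.1), 22 and 10 with no filter on FPKM, 215 and 535 with the GC correction, 306 and 539 if both libraries numbered 3 were left out, and 21 to 574 and 92 to 923 without 1 library (24 h group: 58 rises with number 1 left out, 21 and 92 with number 2, 52 and 134 with number 3; 0 h group: 24 and 103 with number 2, 574 and 923 with number 3). Over the 8 lists, 2 rises and 2 falls became 22 and 1 with FPKM denominators, 4 and 0 by limma on log2(FPKM + 1) or log2(FPKM + 0.1), 2 and 0 with no filter on FPKM, 2 and 4 with the GC correction, 3 and 4 if both libraries numbered 3 were left out, and 1 to 6 rises and 0 to 9 falls without 1 library (6 and 9 without 0 h replicate 3). The causes were not tested.

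Whether the numbers in the titles pair the libraries was not settled. Deviations of same-numbered libraries correlated at 0.241, -0.0199 and 0.422. Replicates 1 and 3 of the 0 h group correlated best with the 24 h library of the same number, and 0 h replicate 2 with 24 h replicate 1. With the replicate block 739 genes rose and 959 fell, in the lists 6 and 9. Among the members not picked for a rise, OGT (-0.43) stayed the only one called, and HCFC1R1 was at 1.11. HCFC1 passed only with the block (0.31) and with FPKM denominators (0.54). HCFC1R1 and HCFC2 rest on 34 to 110 and 54 to 111 counts per library.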
